A study of Sus scrofa with 4 samples.

Results

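The miRNAs miR-451, miR-144 and miR-486 (ssc-miR-451, ssc-miR-144 and ssc-miR-486 in the annotation) are made at high levels in cells of the red blood cell lineage, and their reads were followed here in small RNA libraries of the piglet hippocampus. They were chosen by number, taking any letter and arm, and are 3 of the 321 annotated pig miRNAs that remained after duplicate rows were merged. All 3 reached 10 CPM (counts per 1000000 reads of library size after TMM scaling) in at least 1 library, as did 251 miRNAs in all. A table of conserved miRNA sequences holds 27 further rows for the families mir-451, mir-144 and mir-486, of 2791 rows. The study asked how the hippocampus of Rongchang piglets (a breed of pig from China) differs after oxidative stress induced by iron in the first days of life. Of 8 piglets from 1 litter, 4 were given intramuscular iron dextran (an iron and sugar complex used for injection) at 200 mg on days 3 and 4, and 4 control piglets are labelled as injected with none; both sexes were equally represented in each treatment. All are labelled "wide type", with no transgene named. Dorsal and ventral hippocampus were taken apart and the tissue of each was mixed within a treatment, so the 4 groups (iron dorsal, iron ventral, control dorsal and control ventral) are 1 pooled library each. How many piglets entered each pool is not stated in the labels.

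miR-451 and miR-144 are cut from 1 primary transcript that the factor GATA1 switches on in erythroid precursors. In RefSeq's pig annotation (assembly Sscrofa11.1) MIR451 and MIR144 are listed next to each other, both inside the span of ERAL1. miR-451 is matured by Argonaute2 itself and not by Dicer, so its hairpin yields no partner strand, whereas miR-144 and miR-486 come from ordinary hairpins with both a 5p and a 3p arm. miR-486 lies inside ANK1, which encodes the ankyrin of the red cell membrane skeleton (MIR486-1 is within the ANK1 span in the same annotation), and is also made in muscle. In brain that was not perfused these miRNAs are commonly read as a sign of blood left in the vessels, and the labels mention no perfusion. In bulk tissue, fewer cells of a type and less RNA per cell cannot be told apart.

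The mature sequences that carried the reads are shown from the deposited table of conserved sequences, 5′ to 3′, with the seed (bases 2 to 8) in capitals. The first 3 are the rows whose species list includes pig. The next 2 are the shortest and the longest row of miR-451, and the last 3 are the partner arms, listed for other species only.
miR-451, 22 bases: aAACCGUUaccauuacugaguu
miR-144, 3p arm, 19 bases: uACAGUAUagaugauguac
miR-486, 5p arm, 22 bases: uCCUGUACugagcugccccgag
miR-451, goat row, 19 bases: aAACCGUUaccauuacuga
miR-451, chicken and cattle row, 23 bases: aAACCGUUaccauuacugaguuu
miR-144, 5p arm, mouse and rat row, 23 bases: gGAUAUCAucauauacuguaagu
miR-451, 3p arm, goat row, 21 bases: uUUAGUAAugguaacgguucu
miR-486, 3p arm, dog row, 22 bases: uCGGGGCAgcucaguacaggau
The 3 main arms have different seeds, so they form no seed family. Their GC content differs too, at 36.4% for miR-451, 31.6% for miR-144 and 63.6% for miR-486.

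The libraries held 11396809 (iron dorsal), 12299691 (iron ventral), 12100980 (control dorsal) and 13839556 (control ventral) annotated miRNA reads. Markers of brain tissue were plain: the neuronal miR-9, miR-124a and miR-128 together reached 226513 CPM in iron dorsal, 240532 CPM in iron ventral, 234330 CPM in control dorsal and 254489 CPM in control ventral, while the liver marker miR-122 stayed at 4.55 to 7.80 CPM. In each of the 2 comparisons that use the control ventral library 5 miRNAs were at least 2-fold different, against 2 in each comparison that does not. The bulk of miRNAs did not spread wider there. The 5th to 95th percentiles of the log2 ratio were -0.55 to 0.44 (iron against control, ventral) and -0.50 to 0.49 (dorsal against ventral, control). Without that library they were -0.61 to 0.55 (iron against control, dorsal) and -0.61 to 0.43 (dorsal against ventral, iron). Intervals below are exact 95% intervals and cover counting error only, since amplified reads are not independent molecules and no group had a second library.

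The erythroid miRNAs were a small but well counted part of every library. Together they took 0.0804% of annotated reads in iron dorsal (exact binomial interval 0.0788% to 0.0821%), 0.102% in iron ventral (0.100% to 0.104%), 0.0854% in control dorsal (0.0837% to 0.0870%) and 0.113% in control ventral (0.111% to 0.114%). Both ventral libraries lay above both dorsal libraries. miR-451 made up 64.3%, 58.3%, 69.1% and 62.5% of these reads in iron dorsal, iron ventral, control dorsal and control ventral, and miR-486 no more than 5.52% in any library.

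miR-451, the most abundant of the 3, stood at 553 CPM in iron dorsal (539 to 568), 594 CPM in iron ventral (581 to 608), 579 CPM in control dorsal (565 to 592) and 671 CPM in control ventral (658 to 685). It ranked between 93 and 103 among 321 miRNAs. Control ventral was highest. Below it the intervals of iron ventral and control dorsal overlapped, as did those of control dorsal and iron dorsal. Those of iron ventral and iron dorsal did not overlap. Its highest library exceeded its lowest 1.21-fold, less than the median of 1.33-fold over 251 miRNAs.

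miR-144, from the same transcript, had 269 CPM in iron dorsal (260 to 279), 370 CPM in iron ventral (359 to 381), 212 CPM in control dorsal (204 to 221) and 355 CPM in control ventral (345 to 365). The 2 ventral libraries overlapped in their intervals, both dorsal libraries lay below them, and control dorsal was lowest. With 1.74-fold between its highest and lowest library, miR-144 varied the most of the 3 and stood at place 22 of 251 by this measure.

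miR-486, with 410 to 702 reads, was the least abundant, at 38.5 CPM in iron dorsal (34.9 to 42.4), 54.7 CPM in iron ventral (50.6 to 59.0), 46.2 CPM in control dorsal (42.5 to 50.1) and 48.4 CPM in control ventral (44.9 to 52.2). Its order was its own: iron ventral was highest and iron dorsal lowest, and the intervals of each pair of neighbours overlapped except that of control dorsal and iron dorsal, which missed each other narrowly. The spread was 1.42-fold.

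**Figure D1:**
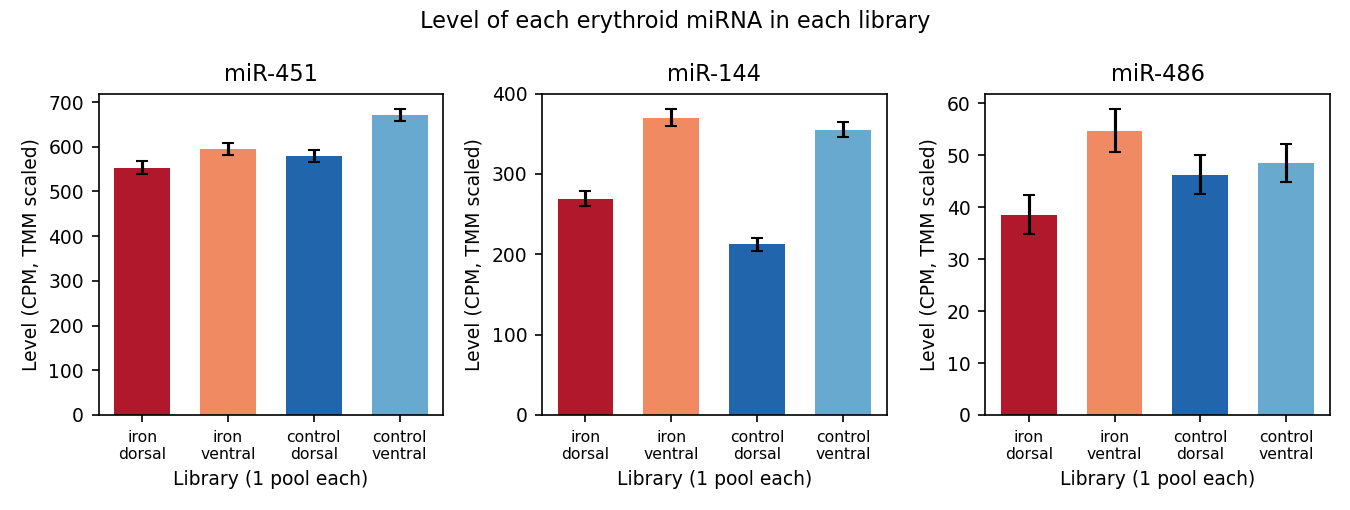
Level of miR-451, miR-144 and miR-486 (CPM, TMM scaled, axes from 0) in the 4 libraries, 1 pool each; bars are the levels and error lines the exact 95% counting intervals. miR-451 is highest in control ventral at 671 CPM, miR-144 is lower in both dorsal libraries (269 and 212 CPM) than in both ventral ones (370 and 355 CPM), and miR-486 ranges from 38.5 to 54.7 CPM.

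The comparison of dorsal with ventral hippocampus gave ratios below 1 for all 3 miRNAs in iron and in control piglets, 2 comparisons that share no library. In iron piglets the dorsal to ventral ratio was 0.931 for miR-451 (0.8998 to 0.964), 0.727 for miR-144 (0.694 to 0.762) and 0.704 for miR-486 (0.622 to 0.798). In control piglets it was 0.862 for miR-451 (0.836 to 0.889), 0.598 for miR-144 (0.570 to 0.627) and 0.954 for miR-486 (0.852 to 1.07). miR-144 thus showed the largest region ratio of the 3 in control piglets, 1.67-fold lower in dorsal, and 6 of 251 miRNAs had a lower ratio there. In iron piglets miR-486 was 1.42-fold lower in dorsal, with 19 of 251 miRNAs below it.

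Of the 3 miRNAs, 0 were at least 2-fold different between regions in either treatment, where 0.797% of the 251 measured miRNAs were in iron piglets and 1.99% in control piglets. The counting interval excluded 1 for 3 of 3 in iron piglets and 2 of 3 in control piglets, but at this depth it did so for 77.7% and 75.3% of all measured miRNAs. Their median log2 ratio was -0.46 in iron and -0.21 in control piglets, beside 0.01 and -0.00 over all 251. Among all measured miRNAs a ratio below 1 was thus about as common as one above 1. The shared direction of the 3 is also not 3 separate observations, since miR-451 and miR-144 come from the same transcript. At the looser limit of 1.5-fold lower with an interval that excludes 1, chosen after the values were seen, miR-144 was counted in control piglets, where 3.59% of miRNAs were, and none of the 3 in iron piglets, where 5.98% were.

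The comparison of iron with control piglets gave no common direction. In dorsal hippocampus the iron to control ratio was 0.956 for miR-451 (0.924 to 0.990), 1.27 for miR-144 (1.202 to 1.34) and 0.834 for miR-486 (0.732 to 0.948). In ventral hippocampus it was 0.885 for miR-451 (0.858 to 0.912), 1.04 for miR-144 (1.002 to 1.09) and 1.13 for miR-486 (1.01 to 1.26). miR-451 was a little lower and miR-144 a little higher after iron in both regions, while miR-486 lay on opposite sides of 1. With total count scaling the ventral miR-144 ratio became 0.998 (0.959 to 1.04), so its direction there depends on scaling.

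None of these ratios reached 2-fold, where 0.797% of miRNAs did in dorsal and 1.99% in ventral hippocampus. All 3 intervals excluded 1 in each region, as did those of 77.7% of all measured miRNAs in dorsal and 77.3% in ventral. Some of these intervals lay close to 1 and came to include it under other processing: in ventral those of miR-144 and miR-486 with total counts or with rows not merged, and in dorsal that of miR-451 with rows not merged. The median log2 ratio of the 3 was -0.06 in dorsal and 0.06 in ventral, beside -0.02 and 0.00 over all 251.

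**Figure D2:**
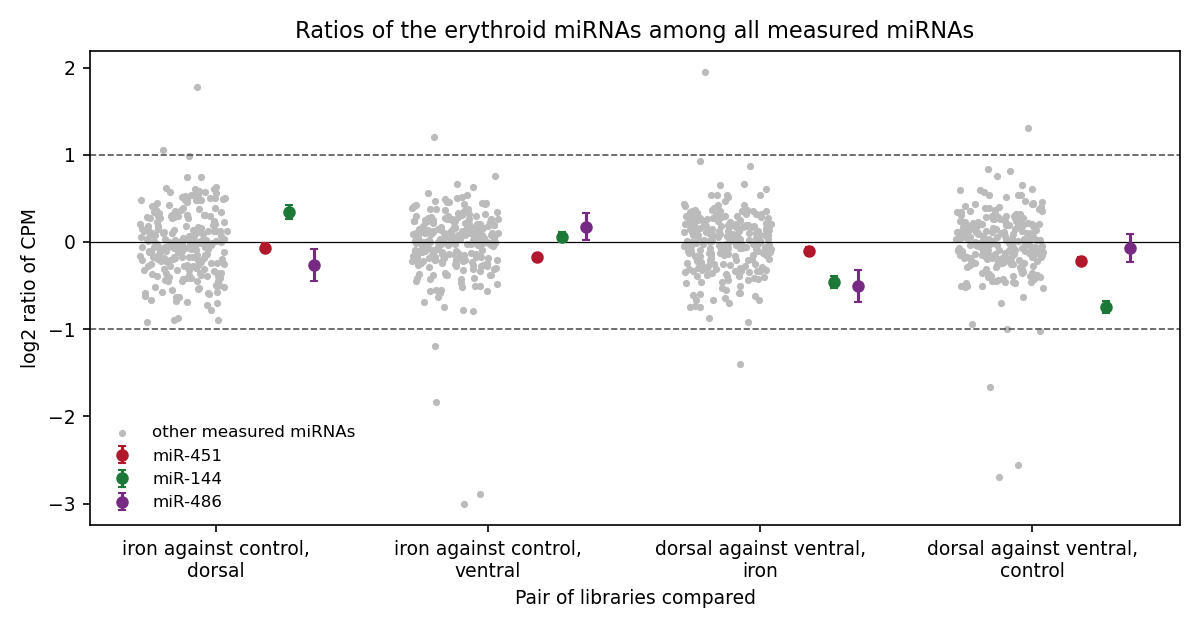
log2 ratio of CPM in 4 pairs of libraries for miR-451, miR-144 and miR-486 (coloured points, error lines are 95% counting intervals) and for the other measured miRNAs (grey points); dashed lines mark 2-fold. All coloured points lie inside the dashed lines, and the lowest is miR-144 in dorsal against ventral of control piglets, at -0.74.

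Over all 4 libraries the region and iron differences were fitted together with edgeR's quasi-likelihood test, with p adjusted over 251 miRNAs by Benjamini and Hochberg. The model leaves 1 residual degree of freedom, and edgeR pools information on spread over all measured miRNAs. Both p and the SE, which was derived from the F statistic, rest on that pooling. Dorsal and ventral pools were drawn from the same set of piglets within a treatment, so p describes the spread between these libraries and not between piglets. For dorsal against ventral the log2 difference was -0.60 ± 0.22 (SE) for miR-144, with an unadjusted p of 0.0208, an adjusted p of 0.858 in edgeR and a lower value in 2 of 2 treatments. For miR-486 it was -0.29 ± 0.26 and for miR-451 -0.16 ± 0.20, each with an adjusted p of 0.996 in edgeR and also lower in 2 of 2 treatments. For iron against control it was 0.20 ± 0.22 for miR-144, -0.12 ± 0.20 for miR-451 and -0.04 ± 0.26 for miR-486, with adjusted p of 0.953, 0.953 and 0.992 in edgeR. None of these passed the threshold of 0.05. Called miRNAs were 0% of 251 in both fits, and 3.19% (region) and 4.38% (iron) had an unadjusted p under 0.05, which is 8 and 11 miRNAs. limma-trend called 0 in both, and the DESeq2 Wald test called 1 for iron and 0 for region, none of them erythroid.

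Ratios of reads within a library need no scaling between libraries, and they differed between these pools by more than counting error. There were 0.487 miR-144 reads per miR-451 read in iron dorsal (0.465 to 0.509), 0.623 in iron ventral (0.600 to 0.647), 0.367 in control dorsal (0.351 to 0.384) and 0.529 in control ventral (0.511 to 0.547). No pair of these intervals overlapped, and the highest proportion was 1.70-fold the lowest, although both miRNAs come from the same transcript. Reads per miR-451 read varied by a median of 1.41-fold over 250 other measured miRNAs, 36 of which varied more than miR-144. In dorsal against ventral the proportion was 0.781-fold in iron piglets (0.737 to 0.828) and 0.694-fold in control piglets (0.656 to 0.734). In iron against control it was 1.33-fold in dorsal (1.24 to 1.41) and 1.18-fold in ventral (1.12 to 1.24).

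miR-486 held closer to miR-451. There were 0.0696 miR-486 reads per miR-451 read in iron dorsal (0.0628 to 0.0769), 0.0920 in iron ventral (0.0849 to 0.0996), 0.0798 in control dorsal (0.0732 to 0.0870) and 0.0721 in control ventral (0.0667 to 0.0779). Iron ventral stood above iron dorsal and control ventral, and the intervals of the other 3 libraries overlapped each other. The highest proportion was 1.32-fold the lowest, and 173 of the 250 miRNAs varied more.

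The conserved table, a second count of the same libraries, splits reads over rows of different species and adds the partner arms. Its family sums were 76.9% to 83.9% of the annotated reads for mir-451, 104% to 116% for mir-144 and 102% to 104% for mir-486. In it the dorsal to ventral ratios were again below 1 for all 3 families: 0.884, 0.727 and 0.701 in iron piglets and 0.872, 0.669 and 0.938 in control piglets for mir-451, mir-144 and mir-486. The reads overlap those of the annotated table, so these are not independent measurements.

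The share of the partner strand differed between the 3 families. The 3p strand of miR-451 had 0 of 4531 family reads in iron dorsal (exact interval 0% to 0.0814%) and 0 of 5938 in iron ventral (0% to 0.0621%). It had 1 read in control dorsal and 1 in control ventral. The 3p arm of miR-486 took 10.1% of its family's reads in iron dorsal (7.40% to 13.4%), 7.94% in iron ventral (6.06% to 10.19%), 7.41% in control dorsal (5.42% to 9.86%) and 8.40% in control ventral (6.49% to 10.7%), with overlapping intervals and only 43 to 61 reads a library.

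The 2 arms of mir-144 did not move together. The 5p arm took 18.3% of the family's reads in iron dorsal (16.99% to 19.7%), 16.1% in iron ventral (15.05% to 17.1%), 23.2% in control dorsal (21.7% to 24.7%) and 12.6% in control ventral (11.7% to 13.5%). As a ratio, 3p reads exceeded 5p reads 4.45-fold in iron dorsal, 5.23-fold in iron ventral, 3.31-fold in control dorsal and 6.96-fold in control ventral. In control piglets the 3p arm stood at 189 CPM in dorsal and 322 CPM in ventral, a ratio of 0.587 (0.559 to 0.617), while the 5p arm stood at 57.1 CPM in dorsal and 46.3 CPM in ventral, a ratio of 1.23 (1.11 to 1.37). In iron piglets both arms were lower in dorsal: the 3p arm had 238 CPM in dorsal and 337 CPM in ventral, a ratio of 0.707 (0.673 to 0.743), and the 5p arm had 53.4 CPM in dorsal and 64.4 CPM in ventral, a ratio of 0.830 (0.744 to 0.925). The lower miR-144 level of the control dorsal library than of the control ventral one was seen in its 3p arm and not in its 5p arm. How often the arms of other families differed as much was not examined.

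**Figure D3:**
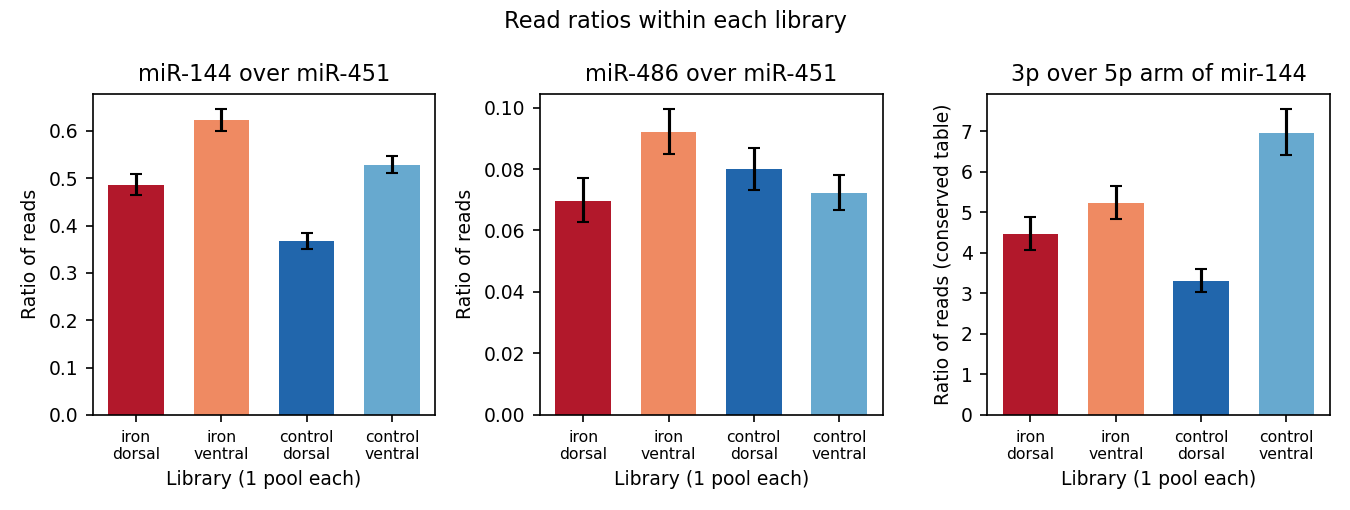
Ratios of reads within each library (axes from 0, error lines are exact 95% counting intervals): miR-144 over miR-451, miR-486 over miR-451, and the 3p over the 5p arm of mir-144. The first ranges from 0.367 to 0.623 with control dorsal lowest, the second from 0.0696 to 0.0920, and the third from 3.31 in control dorsal to 6.96 in control ventral.

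The rows of each family also differ in length at the 3′ end, and the share of the shortest row moved alike in the 3 miRNAs. Rows were nested where one sequence is the start of the others; how a read that matches several rows was divided is not stated by the authors' labels or headers, so the shares describe the table and not molecules. For miR-451 the 19-base row held 21.2% of its nest in iron dorsal, 16.8% in iron ventral, 13.2% in control dorsal and 18.6% in control ventral. For the 3p arm of miR-144 the 19-base row held 27.4%, 21.4%, 19.1% and 25.2% in iron dorsal, iron ventral, control dorsal and control ventral. For miR-486 the 21-base row, 1 base shorter than the pig-listed sequence, held 22.5%, 18.1%, 15.1% and 17.5% in the same order of libraries.

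In all 3, iron dorsal had the highest and control dorsal the lowest share, and the 5p arm of mir-144 did so too, at 2.70% and 1.53%. Another nest, of mir-144 rows that begin 1 base earlier, stayed within 21.1% to 21.6%. The pattern was common in the whole table: among 333 nests of other families with at least 100 reads in each library, 149 (44.7%) had iron dorsal highest and control dorsal lowest, and the median share was 20.8% in iron dorsal, 18.1% in iron ventral, 17.0% in control dorsal and 18.6% in control ventral. The share on short rows thus differed between whole libraries, and its part in the ratios of the erythroid miRNAs was not tested.

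**Figure D4:**
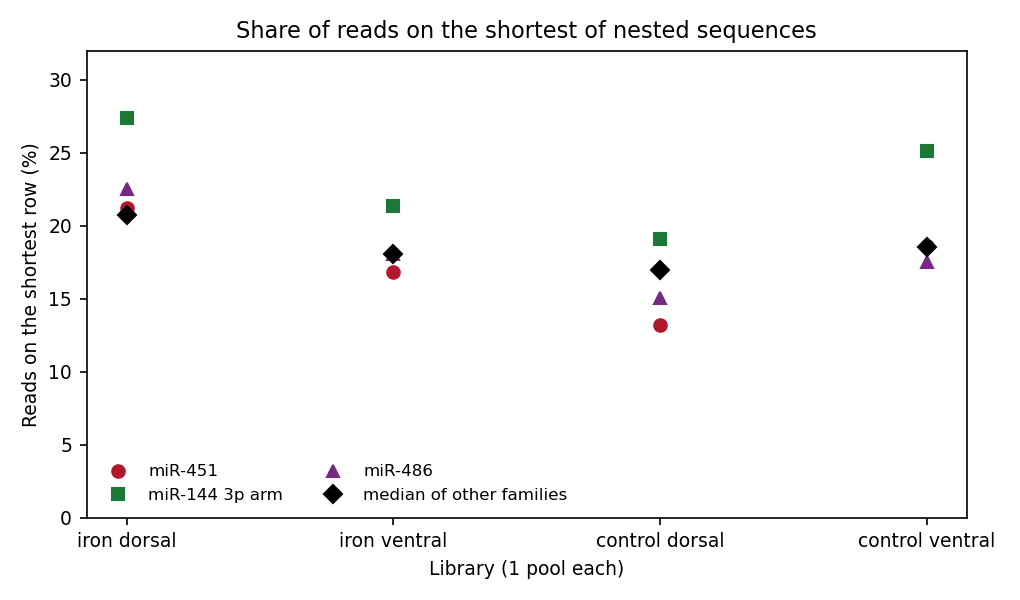
Percentage of reads on the shortest row among nested sequences of the conserved table (axis from 0) in the 4 libraries, for miR-451, the 3p arm of miR-144 and miR-486, and the median of 333 nests of other families. Each series is highest in iron dorsal and lowest in control dorsal, for example 21.2% and 13.2% for miR-451.

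Other miRNAs of blood and vessels gave mixed company. The leukocyte and platelet list held rows of miR-142, miR-146a, miR-150 and miR-155 (6 rows, 5 of them measured), while its miR-223 had no annotated row. Its rows summed to 889 CPM in iron dorsal, 951 CPM in iron ventral, 1010 CPM in control dorsal and 1109 CPM in control ventral. This was between 1.60 and 1.75 reads per miR-451 read. Of the 5, dorsal against ventral, 2 lay above and 3 below 1 in iron piglets, and 1 above and 4 below in control piglets. For iron against control, 0 lay above and 5 below in dorsal hippocampus, and 1 above and 4 below in ventral. Its leading member, miR-142-5p of blood-forming cells, made up most of the sum. It had 542 CPM in iron dorsal, 586 CPM in iron ventral, 588 CPM in control dorsal and 653 CPM in control ventral. miR-142-3p was also lowest in iron dorsal and highest in control ventral, at 47.1, 74.9, 85.9 and 100 CPM in the same order of libraries. miR-146a-5p and miR-150 were lowest in iron ventral, and miR-155-5p was highest in control dorsal.

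The miRNAs of endothelium and vessel wall (miR-126, miR-143 and miR-145, 6 rows) had their higher sums in dorsal hippocampus. They summed to 18871 CPM in iron dorsal, 17044 CPM in iron ventral, 21937 CPM in control dorsal and 16024 CPM in control ventral, so the sum was higher in dorsal than in ventral of both treatments, where that of the erythroid miRNAs was lower. Per miR-451 read this was 34.1, 28.7, 37.9 and 23.9 reads in iron dorsal, iron ventral, control dorsal and control ventral. The sum follows its most abundant row, miR-143-3p, at 11542, 10243, 14800 and 9720 CPM in the same order of libraries. Of the 6, 3 lay above and 3 below 1 in dorsal against ventral of iron piglets, and 6 above and 0 below in control piglets. The endothelial miR-126-3p ranged from 4311 to 5028 CPM.

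Widely expressed miRNAs that are also abundant in red cells (miR-16, miR-363, miR-92a, miR-22 and miR-15a, 6 rows) summed to 8172 CPM in iron dorsal, 8006 CPM in iron ventral, 7398 CPM in control dorsal and 8583 CPM in control ventral. Of the 6, dorsal against ventral, 1 lay above and 5 below 1 in iron piglets, and 2 above and 4 below in control piglets. For iron against control, 2 lay above and 4 below 1 in each region. miR-16 varied little, between 2036 and 2350 CPM. miR-363 varied more, with 2601 CPM in iron dorsal, 1953 CPM in iron ventral, 1546 CPM in control dorsal and 2188 CPM in control ventral. The list's miR-25 and miR-93 had no annotated row.

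The miRNAs of muscle, the other known source of miR-486, were miR-1, miR-133a, miR-133b and miR-206 (5 rows, 3 of them measured). Their sum lay above the level of miR-486 (38.5 to 54.7 CPM) in each library. It was 229 CPM in iron dorsal, 261 CPM in iron ventral, 282 CPM in control dorsal and 175 CPM in control ventral. The sum follows its most abundant row, miR-1, at 173, 196, 221 and 123 CPM in the same order of libraries. miR-206 was also highest in control dorsal, at 13.1, 11.9, 13.3 and 9.80 CPM. Only miR-133a-3p of the measured rows (named after its values were seen) was highest in iron ventral, like miR-486, at 36.9, 46.5, 42.5 and 36.0 CPM. Of the 3 measured rows, iron against control, 0 lay above and 3 below 1 in dorsal hippocampus and 3 above and 0 below in ventral, the sides on which miR-486 lay. For dorsal against ventral, 1 lay above and 2 below 1 in iron piglets, and 3 above and 0 below in control piglets, where miR-486 was at 0.954. None of the measured rows in these lists was 2-fold different in any of the 4 comparisons. The part of these cell types in the erythroid ratios was not tested.

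**Figure D5:**
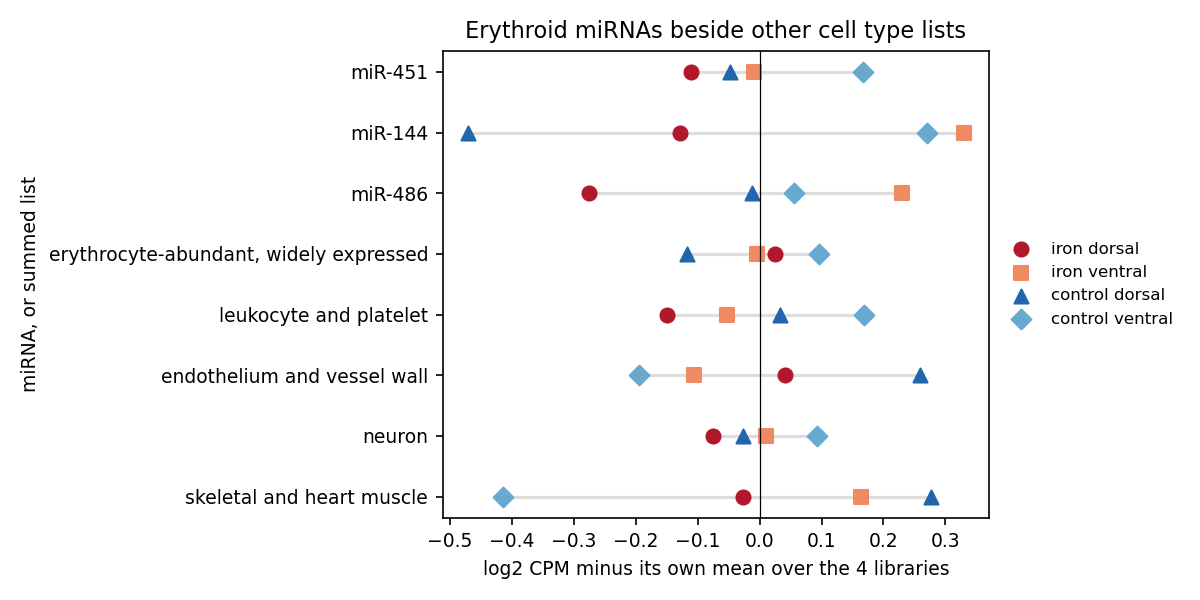
log2 CPM of each erythroid miRNA and of each summed list, minus its own mean over the 4 libraries; symbols mark the libraries. miR-144 spreads the widest, the leukocyte and platelet list has iron dorsal lowest and control ventral highest like miR-451, and the endothelium and vessel wall list has control dorsal highest.

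Likeness of pattern was measured as the root mean square difference of log2 CPM over the 4 libraries after centring each miRNA on its own mean, among 250 other miRNAs. Closest to miR-451 was the leukocyte miR-142-5p (0.02), followed by miR-1307 and miR-345-5p (0.03 each), where the median over all was 0.19. miR-486 was at place 77 and miR-144 at place 204 in this order. The other arm of mir-142, miR-142-3p, had a log2 ratio of -0.87 for iron against control in dorsal hippocampus, where miR-451 was at -0.06. For dorsal against ventral in iron piglets miR-142-3p was at -0.67 and miR-451 at -0.10. Closest to miR-144 were miR-17-3p (0.14), miR-1285 (0.21) and miR-532-3p (0.22), with miR-486 at place 16, miR-451 at place 27 and a median of 0.37 over all. Closest to miR-486 were miR-542-5p (0.06), miR-212 and miR-296-3p (0.07 each), with miR-451 at place 42, miR-144 at place 151 and a median of 0.24 over all. The 3 erythroid miRNAs were therefore not each other's nearest neighbours over these libraries, and with 4 libraries many miRNAs have like profiles.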

How the data were processed

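Reads had been trimmed with cutadapt 1.2.2, and the builds Sscrofa 10.2 and susScr 3 are named, per the submitters' processing notes; no source here names an aligner or quantifier. The authors deposited estimated counts (reads, many of them fractions) for each library, per the file headers, in tables of annotated, predicted and conserved miRNAs, and RPM for the annotated table. The RPM served as an alternative. The 8 RPM columns of the other tables were not used.

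Reads were rounded to whole numbers. Annotated rows that share precursors and differ by at most 0.1% in reads in every library were merged (326 to 321 rows), TMM scaling came from edgeR 4.0.16, and miRNAs reaching 10 CPM in at least 1 library were measured. 3 reads, the limit a count of 0 allows, equal 0.207 to 0.282 CPM. Ratios carry exact conditional binomial (Clopper-Pearson) 95% intervals (scipy 1.17.1); intervals of a quotient of 2 ratios use the normal approximation on the log scale. Quasi-likelihood fits were additive in region and treatment, with DESeq2 1.42.0 and limma 3.58.1 as alternatives. The edgeR fit was also run on simulated counts with a fixed spread and treatment changes of at least 2-fold. That setting differs from the smaller ratios reported here, so it does not show how the fit performs on them.

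Described miRNAs are all rows numbered 451, 144 or 486, the 3 nearest in pattern to each, and the lists' most abundant rows. Some further rows of the lists were named after their values were seen. Members and lists were chosen with earlier results of these data known.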

Additional observations from a re-analysis of the deposited data

Results flagged for a closer look

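Several ratios lay on opposite sides of 1 in the 2 regions or the 2 treatments. With 1 pool a group, none of these differences could be tested. miR-486 was at 0.834 for iron against control in dorsal and at 1.13 in ventral hippocampus. The 3p over 5p ratio of mir-144 was 1.35-fold (1.19 to 1.52) for iron against control in dorsal and 0.751-fold (0.673 to 0.840) in ventral hippocampus.

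The 5p over 3p ratio of mir-486 was 0.713-fold for iron against control in dorsal and 1.06-fold in ventral hippocampus, and 0.769-fold for dorsal against ventral in iron and 1.15-fold in control piglets; all 4 counting intervals include 1. The miR-486 over miR-451 ratio was 0.872-fold (0.764 to 0.994) for iron against control in dorsal and 1.28-fold (1.14 to 1.42) in ventral hippocampus. For dorsal against ventral it was 0.756-fold (0.666 to 0.859) in iron and 1.11-fold (0.987 to 1.24) in control piglets. The miR-486 over miR-144 ratio was 0.657-fold (0.573 to 0.754) for iron against control in dorsal and 1.08-fold (0.967 to 1.21) in ventral hippocampus, and 0.968-fold (0.849 to 1.10) for dorsal against ventral in iron and 1.59-fold (1.41 to 1.80) in control piglets.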

How the results depend on the processing

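The dorsal to ventral ratios of miR-451, miR-144 and miR-486 stayed below 1 in both treatments under every alternative run, for example 0.678 to 0.728 for miR-144 in iron and 0.571 to 0.669 in control piglets. The iron to control ratios kept their direction too, except that of miR-144 in ventral hippocampus, 0.998 with total counts. The interval came to include 1 in ventral hippocampus for miR-486 with total counts (0.971 to 1.202) and with rows not merged (0.997 to 1.235) and for miR-144 with rows not merged (0.985 to 1.07), and in dorsal for miR-451 with rows not merged (0.934 to 1.001). A minimum of 100 CPM leaves out miR-486. Total count scaling moved the median log2 ratio of all miRNAs for iron against control in dorsal hippocampus to -0.15, against -0.02 with TMM.

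Counts of miRNAs past 2-fold were few, so they moved easily. For iron against control in dorsal, 2 became 4 with total counts (1 higher and 3 lower, in place of 2 and 0), 6 with no minimum and 0 with 100 CPM; by the authors' RPM there were 1 higher and 2 lower. In ventral, 5 became 9 with no minimum and 3 with 100 CPM. For dorsal against ventral, 2 became 4 and 0 in iron piglets, and 5 became 11 and 2 in control piglets, with no minimum and with 100 CPM. edgeR's calls, 0 as fitted, were 2 for iron and 3 for region with total counts, DESeq2 size factors or rows not merged, and 3 and 4 with no minimum; the DESeq2 Wald test called 1 for iron. None of these was erythroid.

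The summed share of the 3 depends on its denominator. Without miR-9 it was 0.0967%, 0.125%, 0.104% and 0.143%, and with rows not merged 0.0598%, 0.0742%, 0.0623% and 0.0786%, in iron dorsal, iron ventral, control dorsal and control ventral. In the conserved table the miR-144 over miR-451 ratio was 0.685, 0.833, 0.507 and 0.661, or 0.559, 0.699, 0.390 and 0.578 with the 3p arm alone (added after seeing the data). miR-486 over miR-451 was 0.0940, 0.119, 0.0968 and 0.0900, and miR-486 over miR-144 in control dorsal 0.191. The cause of these shifts was not tested. Leaving out a library leaves no residual degree of freedom, so this was not run as a test. The region fit holds treatment, and so the set of piglets the pools were drawn from, as a term. Beyond it no paired analysis was possible because each group has 1 library and the groups share 1 replicate number.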
